A study of Mus musculus with 13 samples.

Results

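Among hypothalamic microglia sorted one by one, 6 genes were followed well by well, namely Enpp2, Ptgds, Chchd10, Slc1a3, Mbp and Ttr. Brain tissue other than microglia is known for all of them but Chchd10, which encodes a mitochondrial protein. The genes are 6 of the 29278 genes listed on any of the 13 plates. Of them, 5 are among the 17280 genes of the authors' filtered table, which does not list Ttr. The genes were chosen by their levels and detection in these same cells, so those values are given as a description, with intervals for counting error only, and a test is given at the end only for HFD lengths other than the 3-day contrast behind the choice. The study asked how hypothalamic microglia respond to a high-fat diet (HFD), and its series holds 13 plates of 192 wells, 2496 wells in all, read by CEL-Seq2, a method that tags the 3′ end of each transcript with the barcode of its well and with a random molecular identifier (UMI). A well counted as a cell when it held at least 1500 transcripts over the filtered genes, which left 1617 cells, 79 to 165 per plate, with 1510 to 19948 transcripts and a median of 2840.

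The cells came from the hypothalamus of male C57BL/6J mice without any transgene, fed either chow (control) or HFD (60% fat) for 1 day, 3 days, 1 week, 4 weeks, 9 weeks or 16 weeks. The mice were perfused, the tissue was passed through Percoll, and cells with low CD45 and with CD11b, the gate for microglia, were sorted singly into wells. Age was not given, and the weeks carried in the names of the wells are not explained. Control cells numbered 722 from 19 replicate identifiers, and HFD cells 161 from 6 (1 day), 121 from 4 (3 days), 172 from 6 (1 week), 128 from 3 (4 weeks), 82 from 2 (9 weeks) and 231 from 5 (16 weeks). An identifier is not stated to be 1 mouse, so errors over replicates measure the spread between identifiers, which may be partly technical. All 192 well barcodes recur on every plate, so a barcode marks a position on a plate and not a cell of the series.

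Apart from Chchd10, these transcripts belong to different parts of the brain. The choroid plexus, the epithelium that secretes cerebrospinal fluid, makes transthyretin (Ttr), the carrier of thyroid hormone and retinol, in very large amounts, together with autotaxin (Enpp2), the secreted enzyme that produces lysophosphatidic acid. Lipocalin-type prostaglandin D synthase (Ptgds) is a secreted product of the leptomeninges, the choroid plexus and oligodendrocytes, and Chchd10 encodes a protein of the mitochondrial intermembrane space. The glutamate transporter GLAST (Slc1a3) is a hallmark of astrocytes and of the radial-glia-like tanycytes of the hypothalamus, and myelin basic protein (Mbp), whose messenger is carried far into the processes of oligodendrocytes, is a main protein of myelin. The values below describe how these messengers were spread over wells, plates and diets. Whether they were carried over from other tissue or made by the sorted cells was not tested.

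In GENCODE M21 on GRCm38, all 6 are protein-coding genes. Enpp2 lies on the minus strand of chromosome 15 (54838901 to 54952892), as does Slc1a3 (8634124 to 8710764). Ptgds lies on the minus strand of chromosome 2 (25466709 to 25470046) and Chchd10 on the plus strand of chromosome 10 (75933130 to 75937747). Mbp (82475146 to 82585637) and Ttr (20665280 to 20674321) both lie on the plus strand of chromosome 18. Values are per gene, so transcripts of 1 gene that differ in start or splicing were not told apart.

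The sorted cells carried the messengers of microglia. Over a list of 20 microglial genes, the 1614 cells outside 3 wells described next held a median of 253 UMIs per cell, and the lowest cell held 9. Cx3cr1, the fractalkine receptor, was seen in 1612 of these cells and the purinergic receptor gene P2ry12 in 1602. The other lists were low beside it. Per cell, on average, they gave 0.156 UMIs for the choroid plexus, 0.0874 for oligodendrocyte precursors, 0.260 for ependymal cells and tanycytes, 0.227 for neurons, 0.0335 for hypothalamic neuropeptides, 0.175 for leptomeningeal fibroblasts, 0.211 for endothelial cells and pericytes, 0.364 for erythrocytes, 0.205 for border macrophages and 0.115 for lymphocytes. The oligodendrocyte list gave 2.58 and the astrocyte list 3.37, of which most came from Trf (3174 UMIs, transferrin) and Glul (4181 UMIs, glutamine synthetase), genes that are not limited to those cells. The monocyte and neutrophil list gave 1.57, with a range over plates of 0 to 28.9. Most of it lay in 1 cell, which held 867 of 967 S100a9 UMIs, 714 of 768 S100a8 UMIs and 349 of 371 Camp UMIs, genes of neutrophil granule proteins.

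Of the 1617 cells, 3 wells stood apart from all others, and they hold most of what was counted for Ttr, Enpp2, Ptgds and Chchd10. They are wells 136, 168 and 173 of plate 7, all from control replicate M1 and all among the cells that the authors analysed, with 7691, 3444 and 2997 transcripts. Ttr was counted there at 1654, 869 and 458 UMIs, and at most 3 UMIs in any other cell. Enpp2 was counted at 364, 88 and 129 UMIs against at most 3 elsewhere. Ptgds stood at 24, 11 and 14 UMIs and Chchd10 at 30, 14 and 8 UMIs, where no other cell held more than 1 of either. The wells were set apart after these values were seen, because they were the only cells with at least 100 UMIs of the choroid plexus list, which holds Ttr and Enpp2, and each result below is given with and without them where they change it.

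Slc1a3 and Mbp were at 0 in all 3 wells. At the level of the other cells, the 14132 transcripts of the 3 wells would hold 3.01 UMIs of Slc1a3 and 0.468 of Mbp, so for Mbp a count of 0 carries little information. The microglial list was also far below its level elsewhere, with 17, 11 and 9 UMIs, 37 in all, against 1295 at the other cells' level. Of those 37 UMIs, 26 were Cst3, which encodes cystatin C, a secreted protease inhibitor that many cell types make. P2ry12, C1qb, C1qc, Selplg, Siglech and Tyrobp were at 0 in all 3 wells. By transcript number the wells were ordinary or high for plate 7, at the 100th, 87.6th and 73.3rd percentile of its cells.

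What the 3 wells did hold was a broad set of choroid plexus messengers. Of the 15 listed genes of that set, 14, 12 and 10 were present, with 2102, 997 and 631 UMIs, and still 84, 40 and 44 UMIs with Ttr and Enpp2 left out. Klotho (Kl) stood at 28 UMIs over the 3 wells, the secreted antagonist Sostdc1 at 27, the chloride channel gene Clic6 at 21, the folate receptor Folr1 at 15 and the homeobox factor Otx2 at 13. Over all genes, 22 had at least 10 UMIs in the 3 wells and at least 50% of their UMIs over all cells there, and 20 of the 22 were seen in each well. The 22 take in the 4 members and 8 genes of the choroid plexus list, Ttr and Enpp2 counted in both. They also include the sodium pump subunit gene Atp1b1 (24 UMIs against 5 in all other cells), the homeobox gene Msx1 (22 against 3), coagulation factor F5 (34 against 32) and clusterin (Clu, 38 against 19). Other lists were present through few genes. The leptomeningeal fibroblast list stood at 81 UMIs over the 3 wells, of which 49 were Ptgds itself and 26 the growth factor gene Igf2, and the astrocyte list at 68, of which 38 were Clu. Neuronal, oligodendrocyte precursor, endothelial, border macrophage, monocyte and lymphocyte lists were at 0 in the 3 wells.

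**Figure D1:**
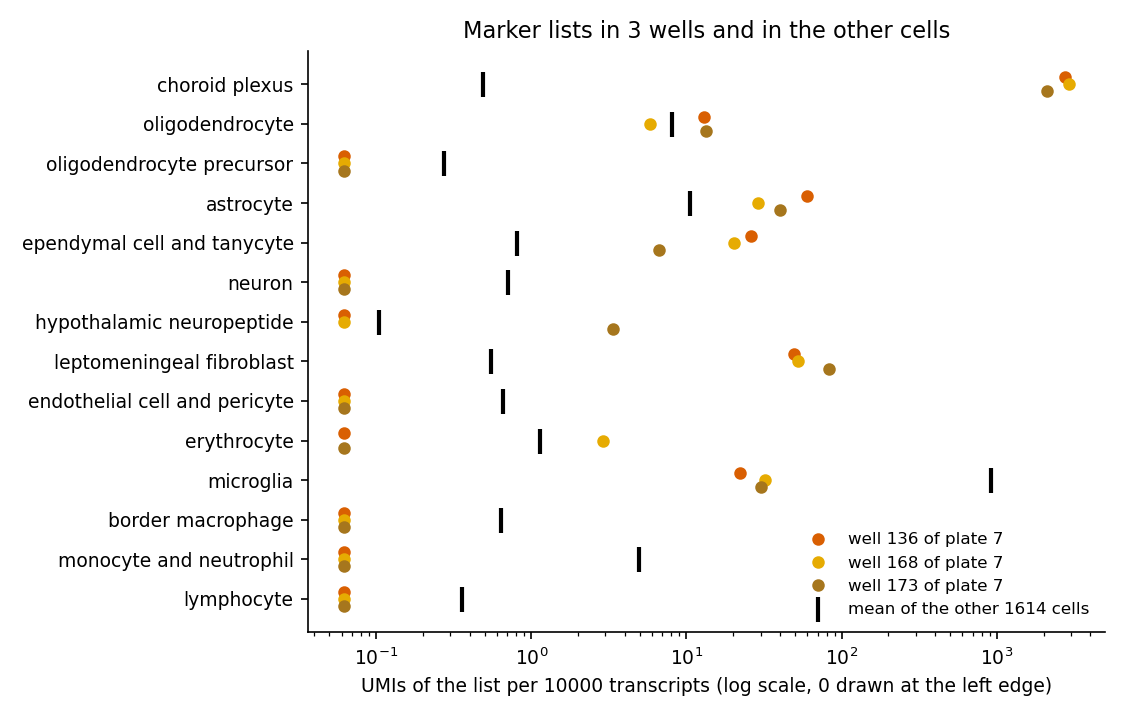
UMIs of each marker list per 10000 transcripts (horizontal, log scale, 0 drawn at the left edge) in wells 136, 168 and 173 of plate 7 (coloured points) and as the mean over the other 1614 cells (black bars). The choroid plexus list stands at 2733, 2895 and 2106 in the 3 wells against 0.486 elsewhere, and the microglial list at 22.1, 31.9 and 30.0 against 916. Ttr counts in the choroid plexus list but not in the transcripts, which are summed over the filtered genes, so these values are not shares.

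The 6 genes fell into a pair spread over many cells and 4 that few cells held. Slc1a3 was seen in 672 of 1617 cells, 41.6% (exact 95% binomial interval 39.1 to 44.0), with 1101 UMIs and at most 7 in a cell. Mbp was seen in 147 cells, 9.09% (7.73 to 10.6), with 171 UMIs and at most 4 in a cell. The 1% of cells with most (16 cells) held 7.81% of the Slc1a3 UMIs and 21.6% of the Mbp UMIs, and it took 192 cells to reach one in 2 of the Slc1a3 UMIs. Intervals cover counting error only.

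For the other genes the 3 wells alone held nearly everything. They contained 98.6% of 3024 Ttr UMIs, 91.5% of 635 Enpp2 UMIs, 89.1% of 55 Ptgds UMIs and 96.3% of 54 Chchd10 UMIs. Ttr was seen in 38 cells, 2.35% of all and 3.18% of the 1195 cells on the 10 plates whose tables list it. Enpp2 was seen in 51 cells (3.15%, 2.36 to 4.13), Ptgds in 9 (0.557%) and Chchd10 in 5 (0.309%). Without the 3 wells, Enpp2 remained at 54 UMIs in 48 cells on 10 plates, Ttr at 43 UMIs in 35 cells on 2 plates, Ptgds at 6 UMIs in 6 cells and Chchd10 at 2 UMIs in 2 cells, and the 1% of cells with most then held 40.7% of the Enpp2 UMIs and 55.8% of the Ttr UMIs.

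**Figure D2:**
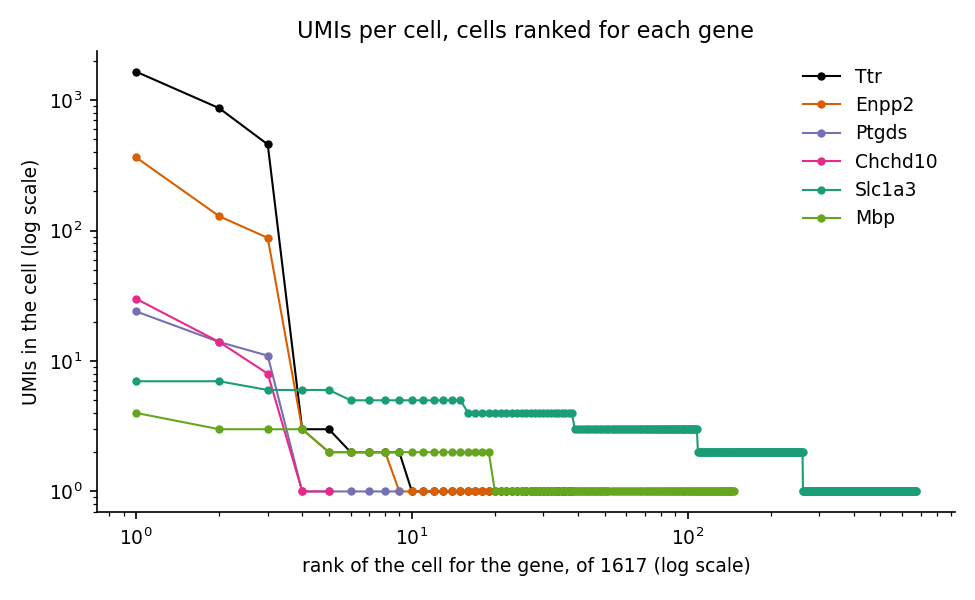
UMIs per cell (vertical, log scale) against the rank of the cell for that gene among 1617 cells (horizontal, log scale), with 1 line per gene. Ttr, Enpp2, Ptgds and Chchd10 drop to 3 UMIs or fewer after the first 3 cells, while Slc1a3 falls from 7 to 1 over 672 cells and Mbp from 4 to 1 over 147 cells.

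Low counts can be set beside what depth alone would give. With the 3 wells left out, the variance of the counts within plates divided by their mean was 1.54 for Slc1a3, where unequal transcript numbers per cell alone would give 1.08. Among the listed microglial genes Sall1, a transcription factor of microglial identity, was nearest to it in mean, though higher (1.62 against 0.682 UMIs per cell). Sall1 gave 1.49 against 1.19. The ratio was 1.24 for Mbp (1.01 from depth), 1.19 for Enpp2 (1.01) and 1.07 for Ttr (1.03). Microglial genes of higher mean, Tyrobp, an adaptor of immune receptors, and Fcrls, an Fc receptor-like gene, gave 2.19 and 2.89 (1.43 from depth for both). The cells with the most UMIs of a member were microglial by the list. The 4 cells with at least 3 Mbp UMIs held 269 to 402 microglial UMIs and 0 to 6 UMIs of other oligodendrocyte genes, and the 5 cells with at least 6 Slc1a3 UMIs held 213 to 1042 microglial UMIs and 0 to 17 UMIs of other astrocyte genes. Outside the 3 wells, the 5 cells with at least 2 Enpp2 UMIs held 216 to 531 microglial UMIs, 0 to 11 UMIs of the leptomeningeal fibroblast list and at most 1 UMI of other choroid plexus genes.

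Slc1a3 detection went up with the depth of the cell while its level did not. With the cells of each plate cut into 3 sets of rising depth, whose medians were 2080, 2724 and 3733 transcripts, Slc1a3 was seen in 33.9%, 42.5% and 48.5% of cells, at 2.35, 2.20 and 1.98 UMIs per 10000 transcripts. Sall1 was seen in 60.9%, 76.7% and 79.5% of the same cells at 5.14, 5.45 and 4.78 per 10000. Mbp was seen in 6.48%, 10.2% and 10.7% at 0.311, 0.390 and 0.300 per 10000, and Enpp2 in 2.78%, 2.44% and 3.69%. With every cell thinned to 1500 UMIs, Slc1a3 was seen in 26.8% of cells and Mbp in 4.64%.

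Slc1a3 was found on all 13 plates and in all 45 replicates that held cells. Outside the 3 wells it was seen in 31.9% (plate 12) to 62.0% (plate 11) of cells, with a mean of 41.9% ± 8.17 (SD, n = 13 plates). Its level ran from 1.22 to 2.70 UMIs per 10000 transcripts, and 10 plates lay between 2.13 and 2.70, with plates 4 (1.53), 5 (1.22) and 12 below them. Plate 11, highest in share, was at 2.27 per 10000, near the median of 2.27 over plates.

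Mbp was also on all 13 plates, in 36 of 45 replicates, and was seen in 3.31% (plate 6) to 13.6% (plate 4) of cells, with a mean of 9.13% ± 3.11 (SD, n = 13). Enpp2 was found in 14 of 45 replicates, and its 34 cells outside plate 7 came from 12 of them. Replicate M5 of 16-week HFD, sorted on plates 10, 11 and 12, had 1, 2 and 1 cells with Enpp2, and control replicate M3 had 1, 1 and 2 on the same plates. Of the other 6 replicates on these plates, control M2 had 0, 3 and 0 such cells, M7 and M8 of 9-week HFD had 2 and 1 on plate 10 alone, and M6 and control M1 and M4 had none. On plate 4, 4 of 14 cells of 4-week replicate M21 held it, and none of its 13 cells on plate 5 did. By plate it was at 0 on plates 1, 6 and 8, where a count of 0 allows a share of up to 2.01%, 1.99% and 1.82%, and was seen in 13.7% of the cells of plate 7 outside the 3 wells, against at most 6.78% on any other plate. Cells with Ttr lay on plate 7, but for 1 cell of plate 4. The tables of plates 1, 2 and 3 do not list Ttr, and they are given no value for it here.

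**Figure D3:**
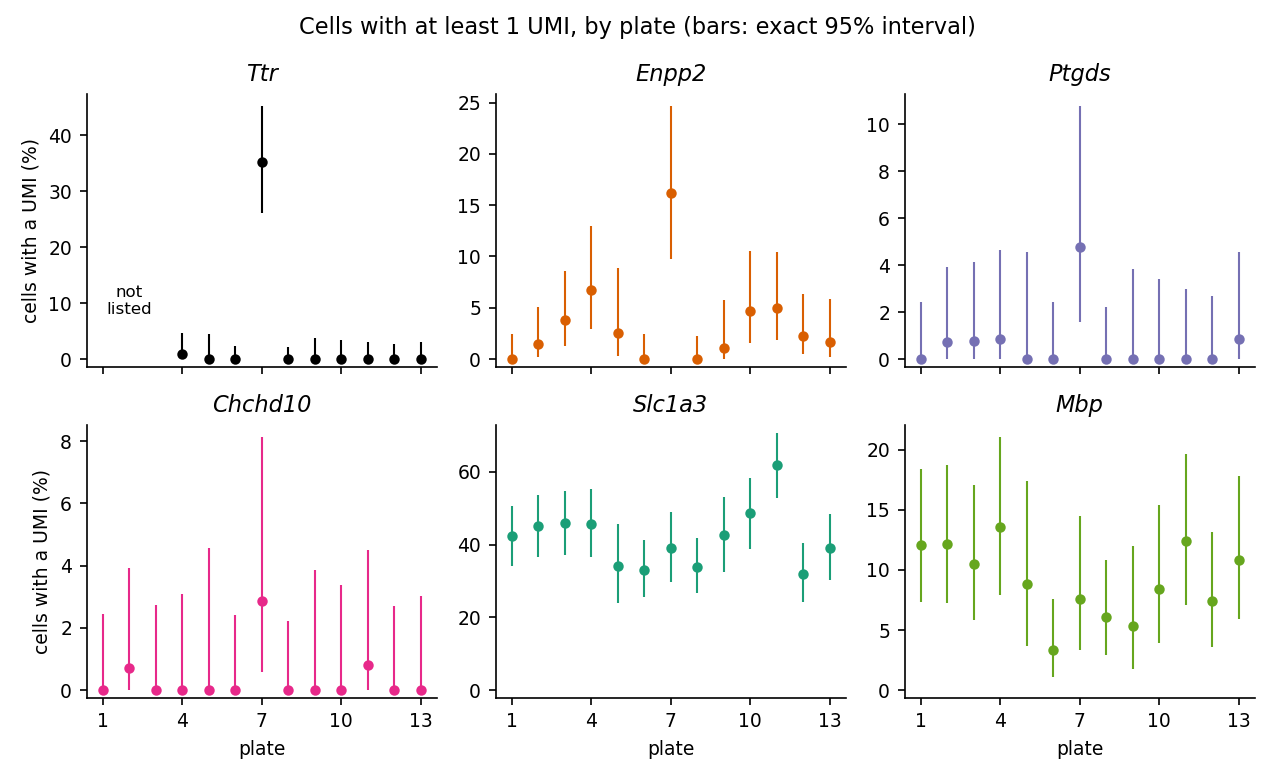
Percent of cells with at least 1 UMI (vertical) on each of the 13 plates (horizontal) for each gene, all cells included, with exact 95% binomial intervals as bars. Ttr and Enpp2 peak on plate 7, while Slc1a3 stays between 31.9% and 62.0% and Mbp between 3.31% and 13.6%.

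Plate 7 allowed a closer view, since its other 189 wells shared a pool with the 3 wells. In them Ttr was counted at 69 UMIs in 54 wells, at most 3 in a well, against 3 UMIs in 2 of the 1728 wells of the 9 other plates that list it. Those were a cell of plate 4 with 1 UMI and a well of plate 9 below the limit, with 279 transcripts and 2 UMIs, that carries the same barcode as well 136. On plate 7, Ttr was seen in 34 of 102 other cells (33.3%) and in 20 of 87 wells below the limit (23.0%). Per well this came to 0.412 and 0.310 UMIs, but per 10000 transcripts to 1.56 and 10.5. Even the 44 wells with fewer than 100 transcripts held 11 UMIs in 9 wells.

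The counts of Slc1a3 on these wells are set beside those of Ttr. With the 189 wells cut into 3 sets of 63 by transcripts, Ttr stood at 16, 24 and 29 UMIs and Slc1a3 at 0, 19 and 45 UMIs. Per 10000 transcripts, Ttr stood at 30.7, 2.45 and 1.51, and Slc1a3 stood at 0, 1.94 and 2.34. The shallowest set held 5208 transcripts in all, where 1.15 Slc1a3 UMIs would be counted at the level of the other sets, so its count of 0 carries little information. Ttr was counted at 33 UMIs in the 93 other control wells and at 36 in the 96 wells of 1-week HFD. Enpp2 was counted at 20 UMIs in 19 of the 189 wells, or 29.0 per 100 Ttr UMIs against 19.5 in the 3 wells together, where the single wells gave 22.0, 10.1 and 28.2. Ptgds was counted at 2 UMIs and Chchd10 at 1. Taken as shares of what the 3 wells held, the other 189 wells held 2.31% for Ttr, 3.44% for Enpp2, 4.08% for Ptgds and 1.92% for Chchd10.

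**Figure D4:**
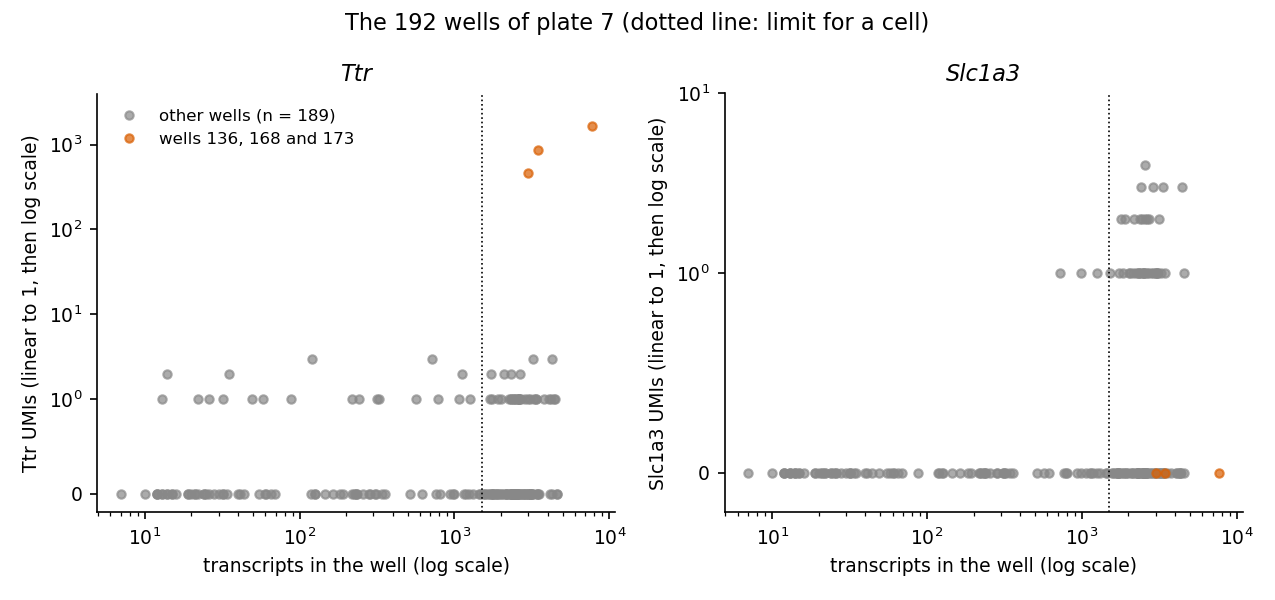
UMIs of Ttr and of Slc1a3 (vertical, linear to 1 and then log scale) against the transcripts of the well (horizontal, log scale) in the 192 wells of plate 7, with the limit for a cell dotted. Ttr occurs at 1 to 3 UMIs in wells of any depth, while Slc1a3 has 0 UMIs in the 63 shallowest wells, where 1.15 would be counted at its level in the deeper wells.

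A well is told from its neighbours in the pool by a barcode of 6 bases, so the barcodes of the 3 wells are shown for comparison with the others.
Well 136: GCCATA
Well 168: TTGGTC
Well 173: ATACGG
The 192 barcodes differ from each other at 2 or more of 6 positions. Ttr was seen in 9 of 30 wells whose barcode differs at 2 positions from the nearest of these barcodes, in 22 of 68 wells at 3, in 19 of 79 at 4 and in 4 of 12 at 5, that is in 30.0%, 32.4%, 24.1% and 33.3%. On the 9 other plates that list Ttr, the 27 wells with these barcodes held 2 Ttr UMIs, both in the well of plate 9. The 36 such wells of all 12 other plates held 2 Enpp2 UMIs and 14 of Slc1a3. How the low counts of Ttr reached the wells of plate 7 was not tested.

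The same genes were then read in wells that stayed below the limit for a cell. Over 602 wells with at least 100 and fewer than 1000 transcripts, Slc1a3 stood at 35 UMIs against 43.3 at the level of the cells of the same plates, a ratio of 0.808 (exact Poisson 95% interval 0.563 to 1.12). Sall1 gave 0.841, Cx3cr1 0.787, Fcrls 0.676 and Cst3 0.971, so Slc1a3 lay within the range of microglial genes in these wells. Mbp gave 12 UMIs against 6.47, a ratio of 1.85 (0.958 to 3.24). Enpp2 and Ttr depended on the 3 wells (Ttr is listed for 512 of the low wells). Their ratios were 0.306 and 0.0993 with the 3 wells among the cells, and 3.89 (1.78 to 7.38) and 6.69 (3.66 to 11.2) without them. All 18 Ptgds UMIs lay in 1 well, and Chchd10 was at 0.

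That well, number 82 of plate 4 (4-week HFD, 939 transcripts), held 18 Ptgds UMIs and 3 Mbp UMIs with 10 UMIs of the microglial list. It also held 2 UMIs of Apod, a lipocalin gene. Well 167 of the same plate (3-day HFD, 1161 transcripts) held 7 Mbp UMIs, 1 of Ptgds and 13 of the microglial list. No cell above the limit had as many Mbp UMIs as well 167, or, outside the 3 wells, as many Ptgds UMIs as well 82.

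Of the 15 pairs of members, 3 were seen together in numbers whose counting interval lay above what their shares give, and all 3 through the wells of plate 7. Ptgds and Chchd10 were seen together in 3 cells, against 0.150 from their shares within plates, Enpp2 and Chchd10 in 3 against 0.550, and Enpp2 and Ptgds in 4 against 0.946. Without the 3 wells these pairs were seen together in 0, 0 and 1 cells. Enpp2 and Ttr were seen together in 7 cells against 6.06, and in 4 against 4.73 without the 3 wells. Slc1a3 and Mbp were seen together in 59 cells against 63.7 (ratio 0.926, 0.705 to 1.19). With Ttr unlisted on plates 1, 2 and 3, no member was seen in 815 cells, 1 in 696, 2 in 95, 3 in 8, and 4 in 3 cells, which are the 3 wells.

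Cells with Slc1a3 did not carry more of other astrocyte messengers. Outside the 3 wells, the 672 cells with Slc1a3 held 2007 UMIs of the other 12 astrocyte genes against 1963 at the level of the other cells of their plates (ratio 1.02, 0.978 to 1.07), and 71 against 72.7 with Glul left out (0.977, 0.763 to 1.23). Slc1a2, the other glial glutamate transporter, was seen in 32 cells in all and in 15 of those with Slc1a3, against 14.1. Their microglial list was at 1.01 times the level of other cells, and P2ry12 was seen in 671 of the 672.

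Cells with Mbp were likewise close to their neighbours. The 147 cells held 403 UMIs of the other oligodendrocyte genes against 421 (0.956, 0.865 to 1.05), and 92 against 87.0 without Trf (1.06, 0.853 to 1.30). With single myelin genes, Mbp was seen beside Mag in 14 against 17.4, beside Cnp in 21 against 19.3 and beside Mobp in 3 against 1.24. Their microglial list was at 0.960 times that of other cells. The 35 cells with Ttr outside the 3 wells held 9 UMIs of other choroid plexus genes against 9.87.

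Some cells with Enpp2 also held collagen messengers, and most of these UMIs belonged to 1 replicate on 1 plate. The 48 cells outside the 3 wells had 47 UMIs of the leptomeningeal fibroblast list, led by Col1a2 and Col3a1, against 11.2 (ratio 4.20, 3.08 to 5.58), and 12 UMIs of other choroid plexus genes against 12.4 (0.968). With Ptgds left out of the list, these cells held 46 UMIs against 10.8 (4.26, 3.12 to 5.69). Without 16-week HFD replicate L4 on plate 3, which was left out after the values were seen, the 43 remaining cells held 6 against 6.83 (0.879, 0.322 to 1.91). The 67 cells of L4 on plate 3 held 96 of the 276 list UMIs of all cells, and 11 of the 15 cells with at least 3 of them. In those 67 cells 8 Enpp2 UMIs were counted, of which 7 were in 4 of those 11 cells. The 66 control cells of replicate L3 on plate 3 held 3 list UMIs and no Enpp2, and the 66 cells of L4 on plate 2 held 2 of each. All 15 cells kept at least 110 UMIs of the microglial list. The collagen counts' part in the Enpp2 counts was not tested.

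The genes whose counts varied most like a member's over cells are given as a last description of the cells. Over all 1617 cells and 10482 genes, Ttr, Enpp2, Ptgds and Chchd10 had each other as nearest genes, at Pearson r of 0.871 to 0.946 on a log scale centred per plate, and Slc4a10, a bicarbonate transporter gene, came next for each at 0.463 to 0.479. These values rest on the 3 wells. Without them the nearest genes to Enpp2 were Col3a1 (0.161), Lmna (0.156) and Col1a2 (0.154), followed by Mfge8 (0.140) and Ndst4 (0.131). For Slc1a3 no gene exceeded 0.0932 (Wdr83os, followed by Sirpa, Tnpo3, Trappc8 and Letm2), and for Mbp none exceeded 0.108 (Txlng, Zc3h18, B3glct, E2f4 and Fam69a). Over the 13 plates, the Spearman rho of levels was highest for Slc1a3 with Arhgap9 (0.978), Col27a1 (0.929) and Kmt2a (0.929), and for Mbp with 2810006K23Rik (0.901), Snx25 (0.885) and Zfp146 (0.874). Plates share replicates, and these values are the highest among 10457 genes. They are descriptions, and how high such values would lie by chance was not tested.

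Where members were found together, the sequence before their RefSeq start sites is shown. RefSeq entries for GRCm38.p6 matched 3 of the 6 genes, Ptgds and Chchd10, seen together in the 3 wells, and Slc1a3, which was absent there. The 150 bases that begin 250 bases before each start, which overlap no annotated exon, were searched on both strands for TAATCC, a core of homeobox factors of the Otx kind, and for the letters TATAAA. The stretches end 101 bases before the start, short of where a TATA box works, so neither a match nor its absence bears on one. Capitals mark a match. The RefSeq start of Ptgds lies downstream of its outermost GENCODE start, so the stretch shown for Ptgds falls in an intron of the longest GENCODE transcript and not before the gene.
Ptgds, chr2:25469850-25469999, minus strand: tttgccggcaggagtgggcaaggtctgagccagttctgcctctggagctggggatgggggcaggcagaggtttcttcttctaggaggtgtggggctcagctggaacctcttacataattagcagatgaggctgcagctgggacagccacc
Chchd10, chr10:75932880-75933029, plus strand: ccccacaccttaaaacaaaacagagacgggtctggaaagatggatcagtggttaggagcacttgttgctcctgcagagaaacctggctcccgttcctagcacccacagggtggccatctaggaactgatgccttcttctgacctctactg
Slc1a3, chr15:8710908-8711057, minus strand: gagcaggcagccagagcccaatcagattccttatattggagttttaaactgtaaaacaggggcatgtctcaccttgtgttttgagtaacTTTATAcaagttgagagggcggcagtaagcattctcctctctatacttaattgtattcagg
No stretch holds TAATCC, which 3.96% of the same stretches of 32851 RefSeq promoters hold. TATAAA occurs once, in Slc1a3, as its reverse complement and 161 bases before the start, and in 7.29% of all. By GC content the stretches stand at 58.7%, 52.7% and 42.0%, against a median of 50.7% over all promoters.

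Across diets, the 4 genes of few cells were too rare outside the 3 wells for a comparison. Outside the 3 wells, Enpp2 was seen in 13 of 719 control cells, in 0 of 161 after 1 day of HFD, 1 of 121 after 3 days, 16 of 172 after 1 week, 4 of 128 after 4 weeks, 3 of 82 after 9 weeks and 11 of 231 after 16 weeks. Of the 16 cells of 1-week HFD, 8 lay on plate 7, and of the 11 of 16-week HFD, 5 lay on plate 3 and 4 belonged to replicate M5, and both plates also held control cells. On plate 7, 8 of 55 cells of 1-week HFD held Enpp2 against 6 of 47 control cells outside the 3 wells. The counts on plate 3 were 5 of 67 cells of 16-week HFD against 0 of 66 control cells, and on plate 2 they were 2 of 66 against 0 of 74. On each of these plates a diet was 1 replicate, so diet and replicate cannot be told apart there. Ttr was seen in 18 control cells, 16 cells of 1-week HFD and 1 of 4-week HFD, and in 0 of the 121 cells of 3-day HFD, which allows a share of up to 2.48%. Of the cells with Ttr, 34 lay on plate 7, which held only control and 1-week HFD cells. The 3-day cells were on plates 4, 5 and 13, and plates 1, 2 and 3 do not list Ttr. For diets not on plate 7, diet and plate cannot be told apart. Ptgds was seen in at most 2 cells of any diet length, and Chchd10 in 1 control cell and 1 cell of 16-week HFD.

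The levels of Slc1a3 overlapped between all diets. Over the 19 control replicates Slc1a3 stood at 0.668 to 4.82 UMIs per 10000 transcripts, with a median of 2.39 and a mean of 2.37 ± 0.871 (SD). Means followed at 2.33 ± 0.627 after 1 day (n = 6), 2.13 ± 0.785 after 16 weeks (n = 5), 1.96 ± 0.100 after 9 weeks (n = 2), 1.86 ± 0.691 after 4 weeks (n = 3), 1.61 ± 0.263 after 3 days (n = 4) and 1.44 ± 0.571 after 1 week (n = 5, without 1 replicate of 4 cells). In this order every pair of neighbours differed by less than the larger of their SDs, which the sorting favours. All 6 HFD means lay below the control mean, and the 1-week mean lay below it by more than either SD. The 9-week replicates lay at 1.89 and 2.03, and the 4-week replicates at 2.47, 1.99 and 1.11. After 1 week the replicates lay at 1.37, 1.39, 2.25, 1.54 and 0.647, and the last, with 12 cells, was the only HFD replicate of at least 5 cells below the lowest control.

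The 3-day HFD replicates were part of the contrast on which the genes were chosen, and are described only. Slc1a3 stood at 1.40 and 1.38 per 10000 in replicates M24 and M25, on plates 4 and 5, and at 1.76 and 1.91 in M17 and M18 on plate 13. Plates 4 and 5 were low in Slc1a3 for their other cells too, and plate 5 held no control cells. On plate 4 the only control replicate, with 7 cells, stood at 1.01 beside 1.75 and 1.42. On plate 13 the 4 control replicates stood at 1.64, 2.85, 4.82 and 2.07, so that the 3-day values lay within the control range.

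**Figure D5:**
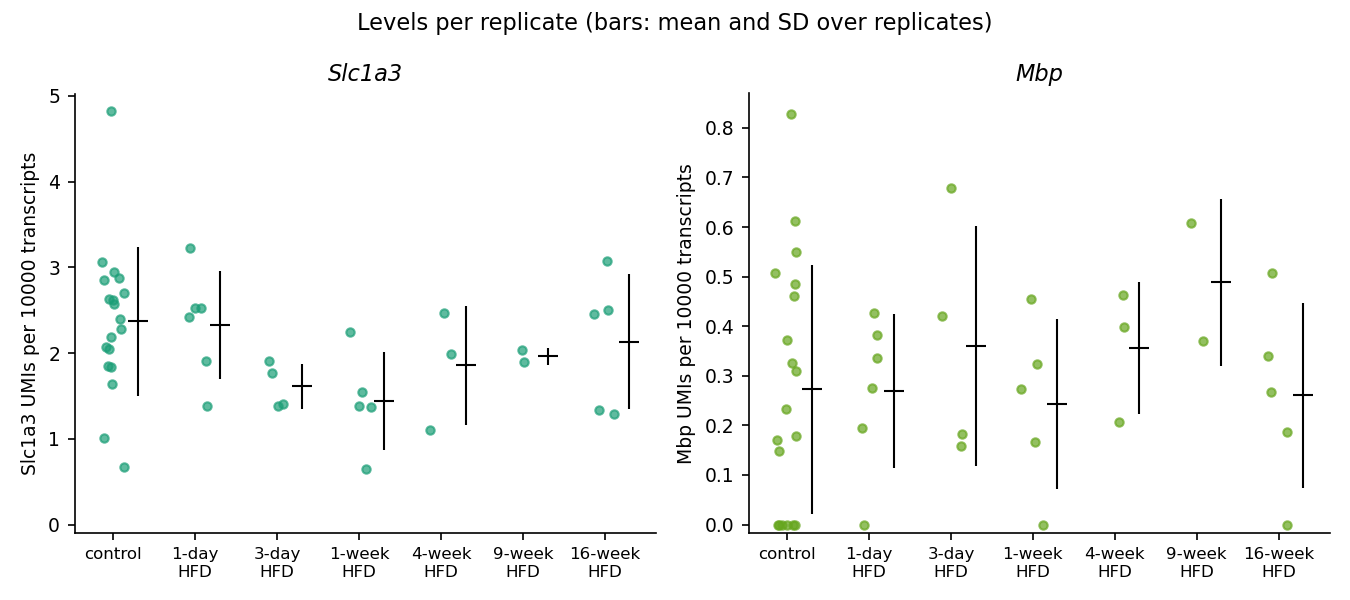
UMIs of Slc1a3 and of Mbp per 10000 transcripts (vertical) in each replicate with at least 5 cells (points), outside the 3 wells, by diet (horizontal), with mean and SD beside them. The Slc1a3 values of all diets overlap the control range of 0.668 to 4.82, and Mbp reaches 0 in control, 1-day, 1-week and 16-week replicates.

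Mbp rested on few UMIs per replicate. Its mean per 10000 transcripts was 0.273 ± 0.251 in control (SD, n = 19), 0.269 ± 0.155 after 1 day, 0.360 ± 0.243 after 3 days, 0.244 ± 0.172 after 1 week, 0.356 ± 0.133 after 4 weeks, 0.489 ± 0.169 after 9 weeks and 0.260 ± 0.187 after 16 weeks, with the same numbers of replicates as for Slc1a3. The control replicates ran from 0 to 0.828 and enclosed the values of every HFD replicate of at least 5 cells.

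For the 5 HFD lengths other than 3 days, edgeR's quasi-likelihood test compared counts summed per replicate and plate with control on the same plates, with the plate as a block, and Benjamini-Hochberg adjustment over all genes tested. The control cells were part of the choice of the genes, and values at these lengths were known too, so the fits are not independent of it. The fits held 6 HFD and 6 control sums after 1 day, 5 and 7 after 1 week, 3 and 2 after 4 weeks, 6 and 12 after 9 weeks and 10 and 18 after 16 weeks. After 9 weeks these sums came from only 2 and 4 replicates, and after 16 weeks from 5 and 9, so sums of a replicate spread over plates are not independent and the errors at these lengths may be too small. Only Slc1a3, 1 of the 5 members in the table, passed the filter on low counts, so Enpp2, Ptgds, Chchd10 and Mbp have a value only in the fit without that filter. Slc1a3 was called at no length. Its log2 fold change was −0.01 (SE 0.26, adjusted p = 0.999) after 1 day, −0.51 (SE 0.31, adjusted p = 0.890) after 1 week, 0.10 (SE 0.45, adjusted p = 1.00) after 4 weeks, −0.15 (SE 0.24, adjusted p = 0.926) after 9 weeks and −0.19 (SE 0.19, adjusted p = 0.885) after 16 weeks.

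The 95% intervals of these log2 differences ran from −0.59 to 0.57 after 1 day, −1.25 to 0.23 after 1 week, −1.83 to 2.03 after 4 weeks, −0.68 to 0.37 after 9 weeks and −0.57 to 0.20 after 16 weeks. A change of 2-fold therefore lies outside the interval after 1 day, 9 weeks and 16 weeks, and inside it, in at least one direction, after 1 week and 4 weeks. With the sums of plates that share replicates joined, the intervals were −1.27 to 0.19 after 1 week, −1.65 to 1.85 after 4 weeks, −0.88 to 0.54 after 9 weeks and −0.64 to 0.19 after 16 weeks. Without the filter, edgeR called 12 of 16515 genes after 1 week (0.0727%), and 3 members were among them, all lower than in control. They were Enpp2 (log2 fold change −5.17, SE 0.48), Ptgds (−4.05, SE 0.92) and Chchd10 (0 UMIs in HFD and so no fold change given). These calls rested on the 3 wells, which belong to a single control replicate of that fit. Control cells were also part of the choice of the genes, so these calls are no test of the diet. Without the wells edgeR called 5 of 16460 genes (0.0304%) and no member, with Enpp2 at 0.81 (SE 0.94, adjusted p = 0.999). Mbp was not called in either fit, and no member was called without the filter at the other 4 lengths.

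Few genes were called with the filter. The share of tested genes called was 0% of 1116 after 1 day, 0.28% of 1071 after 1 week, 0% of 1856 after 4 weeks, 0.0948% of 1055 after 9 weeks and 0% of 936 after 16 weeks. At an unadjusted p under 0.05 edgeR counted 63, 66, 25, 84 and 67 genes, and DESeq2 called 0, 0, 0, 1 and 0 after adjustment. The 4 genes called, named here after their values were seen, were H2-Aa, H2-Ab1 and Gm42418, higher after 1 week, and Jun, lower after 9 weeks. Without the 3 wells, 2 genes were called after 1 week, and H2-Ab1 missed the threshold (adjusted p = 0.0548 by edgeR, against 0.0478 with them).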

How the data were processed

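The deposited estimated counts per gene and well were made by the authors in snakePipes, with Cutadapt for barcodes, STAR on mm10 and featureCounts. They cover 13 plates, beside a filtered table (843 columns, used here for its gene names only) and a table of wells. The estimated count of the authors corrects the number of different UMIs for chance repeats among the 4096 sequences of 6 bases, carries no normalization, and was converted back to whole UMIs (all within 0.001). Ambient RNA was not removed and doublets were not called, since wells were sorted singly.

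The members, marker lists (160 genes) and tests were chosen with earlier results of these data known. Genes named were the members, the leading genes of each list and those nearest to a member by correlation, and any other was chosen after its values were seen. Levels are UMIs per 10000 transcripts of the filtered genes, which do not include Ttr. A count of 0 was taken to allow 3 counts of the total. Expected numbers for co-detection, lists and low wells were formed within plates. Estimated counts were summed per replicate and plate (at least 5 cells), rounded, and fitted by edgeR 4.0.16 (TMM, filterByExpr) in R 4.3.3 at an adjusted p under 0.05, with DESeq2 1.42.0 as an alternative beside leaving out plates and replicates and other filters. Tested on simulated data, edgeR called 92%, 89%, 14%, 98% and 100% of 2-fold changes at 1 day, 1 week, 4 weeks, 9 weeks and 16 weeks, with every sum drawn as independent, which sums of a replicate over several plates are not. The simulation also changed far more genes than the fits called, which eases the adjusted threshold, and drew no plate effect. Its percentages are over genes that pass the filter and may be too high for a gene of low count. Python 3.11.15, pandas 2.3.3 and scipy 1.17.1 were used. The 879 wells below the limit did not count as cells. They entered only where counts are given for wells, and under settings that changed which wells count as cells. Values of some genes are not reported here. The replicate identifiers do not recur across diets as pairs, so the plate was the block.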

Additional observations from a re-analysis of the deposited data

Results flagged for a closer look

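Among 11 pairs of a group and a member with 4 to 10 replicates and enough values, 1 held a replicate far from the rest. Ptgds stood at 0.3233 UMIs per 10000 transcripts in replicate M13 of 1-week HFD, where the next replicate stood at 0.06815. It rests on 1 UMI in 12 cells, and the limit used sets apart about 1 in 20 groups by chance where values are normally distributed, which values that are mostly 0 are not.

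Ttr was present in wells that did not count as cells. The 87 wells of plate 7 below the limit for a cell held 27 Ttr UMIs, and the 638 wells below the limit on the other plates that list Ttr held 2.

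Ptgds was counted at 18 UMIs in well 82 of plate 4, which is below the limit, against 2 UMIs in the other 878 wells below it. The causes of these counts were not tested.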

How the results depend on the processing

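Of 731 values recomputed for 42 results under other settings, 673 stayed within the limit set for their kind (the SD between plates, the interval of the value, 1.5 times a count or the side of the threshold), 49 moved and 9 changed sign. For rare genes that SD exceeds the value itself. Without plate 7 the percent of cells fell to 0.06614 for Ttr, 0.1323 for Chchd10, 0.2646 for Ptgds and 2.249 for Enpp2, and thinning gave 1.546 for Enpp2, all counted among the 673. With cells thinned to 1500 UMIs, 26.84% of cells held Slc1a3 and 4.638% Mbp, the Enpp2 and Ttr co-detection ratio became 2.566 and that of Chchd10 and Slc1a3 became 0. Without the 3 wells, an alternative added after the data were seen, the 1% of cells with most held 40.74% of Enpp2 and 55.81% of Ttr UMIs, the Enpp2 and Chchd10 ratio became 0, and the ratios of low wells to cells became 3.886 for Enpp2, 71.9 for Ptgds and 6.691 for Ttr. With low wells of fewer than 500 transcripts they became 0 for Ptgds and 0.2737 for Ttr.

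Leaving out 1 plate at a time, plate 7 set nearly every change. The share held by the 1% of cells with most ranged from 51.28% to 95.53% for Enpp2 and from 99.24% to 100% for Ttr. Co-detection ratios ranged from 0 to 4.555 for Enpp2 and Ptgds, 0 to 6.0 for Enpp2 and Chchd10, 0 to 1.169 for Enpp2 and Ttr, 0 to 1.397 for Ptgds and Mbp, 0 to 0.8306 for Slc1a3 and Ttr, and 0 to 0.3547 for Mbp and Ttr, the 0 in each case without plate 7. Low-well ratios ranged from 0.2398 to 2.532 for Enpp2 (highest without plate 7) and from 0 without plate 4 to 118.3 without plate 7 for Ptgds.

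Genes called after 1 week were 3, and 0 with DESeq2, 12 without the filter, 0 without the plate block, 5 with sums of at least 10 cells, 0 with cells of at least 1000 transcripts 0 in 1 fit of all lengths, 2 without the 3 wells and 5 without both the filter and the wells. The 12 included Enpp2, Ptgds and Chchd10, and the 5 included no member. After 4 weeks they were 0, and 7 without the filter and 5 with sums over linked plates. After 9 weeks they were 1, and 3 without the filter and 0 in 1 fit of all lengths. After 16 weeks they were 0, and 4 without the filter. Leaving out 1 replicate at a time gave 0 to 1, 0 to 4, 0 to 14, 0 to 4 and 0 to 1 genes after 1 day, 1 week, 4 weeks, 9 weeks and 16 weeks. The 14 came without control L1 or HFD L2, which leaves 1 residual degree of freedom, and after 1 week 0 came without M1 or M2 of plate 7, M13 of plate 13 or M23 of plates 4 and 5, after 9 weeks without M2.

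Slc1a3 was called under none of the settings in which it passed the filter. Its log2 fold change turned to 0.00436 after 1 day with DESeq2, and after 4 weeks to −0.11 without the plate block and −0.16 in 1 fit of all lengths. Without single replicates it ranged from −0.19 to 0.13 after 1 day, −0.70 to −0.26 after 1 week (6 of 12 fits), −0.079 (without M20) to 0.57 after 4 weeks, −0.22 to −0.08 after 9 weeks and −0.39 to −0.02 after 16 weeks. The causes were not tested. Sums of at least 10 cells and leaving out M26 gave no fit after 4 weeks, and Slc1a3 did not pass the filter after 1 week with cells of at least 1000 transcripts or without M1, M2, M3, M4, M22 or M23. No paired analysis was possible because replicate identifiers name samples within a diet and do not pair control with HFD.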
